A study of Sus scrofa with 8 samples.

Results

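A set of 9 genes that mark bile duct cells or hepatic progenitor cells was followed in the liver of pigs before and after a steatotic diet: KRT7, KRT19, EPCAM, SOX9, SOX4, CFTR, PROM1, SPINT2 and CD24. They were chosen by symbol, and 7 of the 9 had a row among the 18103 genes and new transcripts of the FPKM table. KRT7 and CD24 had none. All 7 with a row passed the filter on low values (at least 0.3 FPKM in at least 4 of 8 libraries), as did 13175 of all genes. FPKM counts fragments per length of transcript and per depth of library, so levels of genes of different length can be set side by side.

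Hepatic RNA came from male Landrace x Large White pigs and was sequenced as 8 libraries, each made from a pool of 2 animals, 4 of the initial state and 4 of steatosis. In the initial state the pigs were 4 months old and had been on the steatotic diet for 0 months, and the labels call them healthy. In steatosis the same animals were 6 months old and had eaten for 2 months a diet rich in saturated fat, cholesterol, cholate and fructose and poor in methionine and choline. Initial samples were biopsies taken by laparotomy and steatosis samples were taken after euthanasia, both after overnight fasting, so diet, age and sampling cannot be told apart.

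Cholangiocytes are the epithelial cells that line the bile ducts. They carry the simple keratins 7 and 19, seal their contacts with claudins and cadherins, and change the bile by secreting chloride and bicarbonate. In chronic liver injury, small duct-like cells that express SOX9, EPCAM and prominin 1 can appear at the edge of the portal tracts, a process called ductular reaction, and part of these cells behave as progenitors. In whole liver these genes are low because duct cells are few, and in a bulk library more cells of a type and more RNA per cell cannot be told apart.

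The libraries looked like liver in all pools: the summed FPKM of 10 hepatocyte genes (such as ALB, TTR and FGB) lay between 55790 and 95460. Initial pool 1 stood apart. Its summed FPKM of 10 stomach mucosa genes was 2235, against 22.2, 44.0 and 5.75 in initial pools 2, 3 and 4 and 5.80 to 6.41 in steatosis. All 10 were highest in initial pool 1, led by the pepsinogen PGA5, TFF1 and GKN2, and 4 of them were at 0 in all steatosis pools. Its skeletal muscle genes (ACTA1, CKM and TNNC2 among the 9 measured, all highest in this pool) summed to 2816, against 0.84 to 21.0 in the other initial pools and 0.14 to 0.39 in steatosis, where 3 of them were at 0 in all pools. Epithelium of the stomach also expresses KRT19, EPCAM and SPINT2. Results are therefore given with and without initial pool 1. The part of this RNA in them was not tested. Mesothelium at the surface of the liver is another possible source of KRT19. Of 8 mesothelial genes listed, 6 had a row, and their sums were 0.04 to 1.90 FPKM, highest in initial pool 3. The part of mesothelial RNA in KRT19 was not tested.

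**Figure D1:**
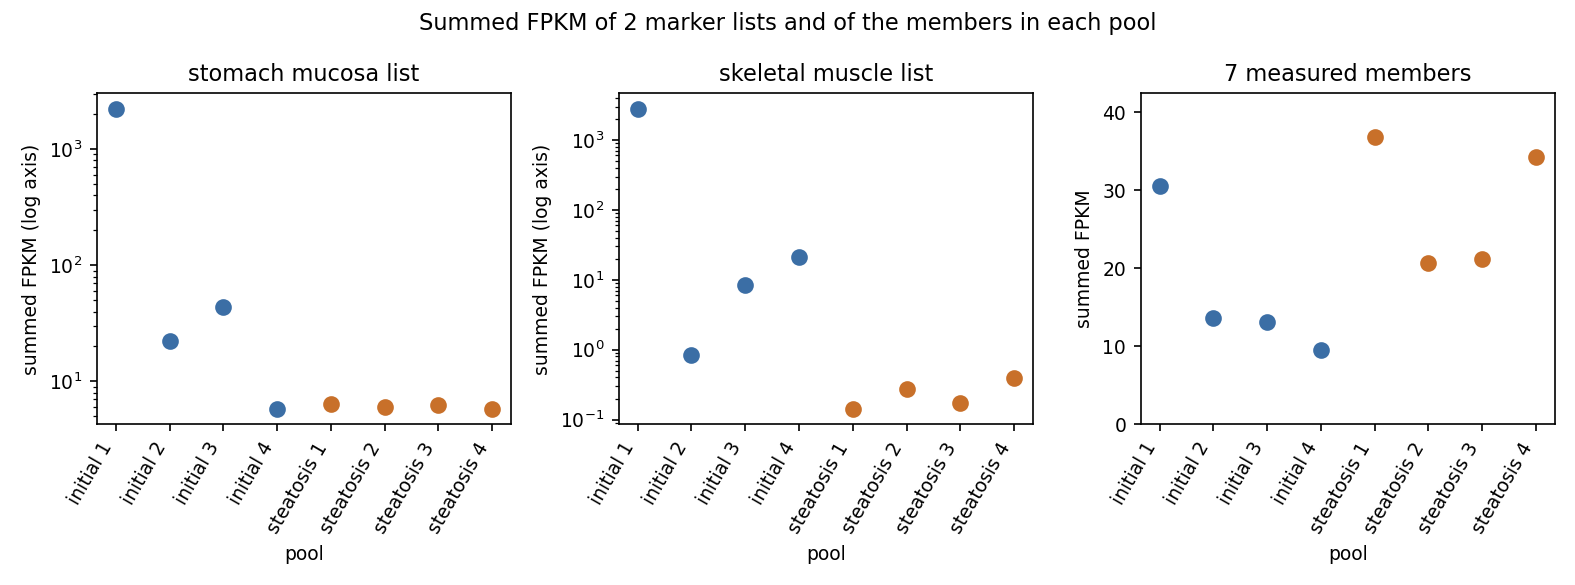
Summed FPKM (y axis; log axis in the left and middle panels) of the stomach mucosa list, the skeletal muscle list and the 7 measured members in each of the 8 pools (x axis), 1 point per library, blue for initial and orange for steatosis. Initial pool 1 reached 2235 for stomach and 2816 for muscle genes, and its members summed to 30.5 FPKM, against 9.55 to 13.7 in the other initial pools and 20.7 to 36.9 in steatosis.

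PROM1 and SPINT2 were higher in steatosis and the other 5 measured members did not pass the test in all 8 libraries. PROM1 rose 5.98-fold in mean FPKM and SPINT2 1.92-fold. At an adjusted p under 0.05 in limma 2 of 7 members were called higher, against 26.7% of all genes tested, and at an adjusted p under 0.01 with a log2 fold change beyond 1 PROM1 alone was called, against 6.01%. No member was called lower (0 of 7, against 2.28% and 0.334% of all genes), and at an unadjusted p under 0.05 the counts were 5 higher and 0 lower (37.8% and 4.13% of all genes). At an adjusted p under 0.05 the share of members called was thus near that of all genes. Without initial pool 1, 4 of 7 were called at an adjusted p under 0.05 (PROM1, SPINT2, EPCAM and SOX4), against 23.7% of all genes, and 2 of them, PROM1 and SPINT2, passed the stricter limits, against 6.03%. None was called lower there (2.14% and 0.298% of all genes).

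Pairing the pools by number as a block in the fit gave 4 of 7 members higher at an adjusted p under 0.05 (PROM1, SPINT2, SOX9 and SOX4), against 25.7% of all genes, 1 by the stricter limits (PROM1), against 5.96%, and 0 lower (2.6% and 0.433%). With each library scaled by its median ratio, PROM1 was the 1 member called by either limit, against 11.3% and 3.04% of all genes, and 0 were lower (10.1% and 0.645%). Over all genes this scaling changed the split at an adjusted p under 0.05 from 3519 higher and 300 lower to 1488 and 1327.

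The log2 fold changes of the 7 members had a median of 0.81, against 0.25 over all genes tested. These medians were 1.18 and 0.25 without initial pool 1. All 7 estimates lay above 0, as did those of 78.7% of all genes, and 6 of 7 lay above the median of all genes. With libraries scaled by their median ratio the median of all genes moved to -0.02 and that of the members to 0.56, and KRT19 turned to -0.09. In all 4 pairs of pools with the same number, 4 members (SOX9, SOX4, PROM1 and SPINT2) were higher in steatosis, a pattern that 44.1% of all genes showed.

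**Figure D2:**
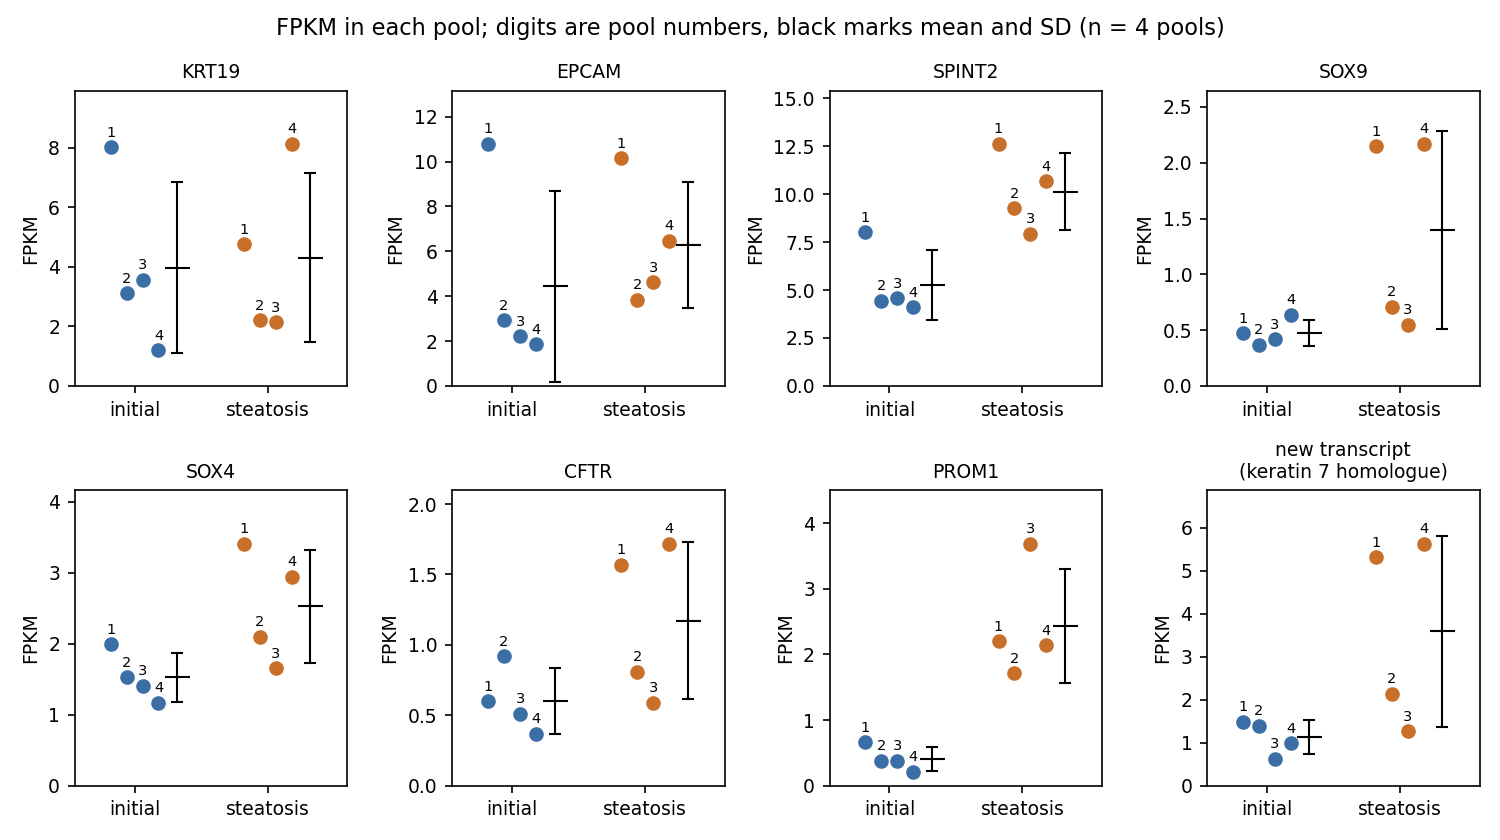
FPKM (y axis, from 0) of the 7 measured members and of a new transcript described as a keratin 7 homologue in initial and steatosis pools (x axis). Each point is 1 library with its pool number, and the black mark and bar are the mean and SD of 4 pools. PROM1 is the only gene shown whose groups do not overlap, with 0.21 to 0.66 FPKM in the initial state and 1.71 to 3.69 in steatosis.

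KRT19 encodes keratin 19, an intermediate filament protein of duct epithelium (gene ID 100515339, Sscrofa11.1 chromosome 12, 21115453 to 21119115, transcript of 1583 bases). Its FPKM was 8.02, 3.12, 3.56 and 1.2 in initial pools 1 to 4 and 4.76, 2.2, 2.14 and 8.13 in steatosis pools 1 to 4. The highest initial pool and the highest steatosis pool were nearly equal, and the groups overlapped over almost their whole range. The means were 3.98 ± 2.89 and 4.31 ± 2.83 FPKM (SD, n = 4), with a log2 fold change of 0.18 ± 0.56 (SE; 95% confidence interval -1.07 to 1.43; limma adjusted p = 0.827). In 3 of the 4 pairs of pools KRT19 was lower in steatosis, with ratios of 0.594, 0.705 and 0.601 in pools 1, 2 and 3, and in pool 4 it was 6.78 times the initial value. A difference of KRT19 was not detectable at this spread, and without initial pool 1 the log2 fold change was 0.61 (adjusted p = 0.390).

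KRT7, the partner keratin of KRT19 in ducts, had no row. RefSeq lists it in Sscrofa11.1 on chromosome 5 (17553192 to 17570582) as a long non-coding RNA. After the values were seen, 2 of the 325 new transcripts assembled by the authors were found to be described as keratin, type II cytoskeletal 7, of cattle or deer, and they have no coordinates in the files. The first, of 1600 bases, had 1.49, 1.39, 0.63 and 0.99 FPKM in initial pools 1 to 4 and 5.31, 2.14, 1.26 and 5.63 in steatosis. Steatosis pools 1 and 4 lay far above all others, and pool 3 lay within the initial range. Its means were 1.12 ± 0.394 and 3.58 ± 2.21 FPKM (n = 4) and its log2 fold change 1.41 ± 0.46 (limma adjusted p = 0.0431), or 1.56 without initial pool 1 (adjusted p = 0.0454). With median ratio scaling the adjusted p was 0.105, and an adjusted p under 0.05 remained in 2 of the 8 fits that left out 1 library. The second, of 1448 bases, was at 0 in 6 libraries and had 0.32 and 0.20 FPKM in steatosis pools 1 and 4, and was not tested. Both may share reads with other type II keratins, so their values are uncertain.

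EPCAM encodes an epithelial adhesion molecule that hepatocytes of the adult liver lack (gene ID 403163, chromosome 3, 93169800 to 93185221). Initial pools 1 to 4 had 10.8, 2.92, 2.22 and 1.85 FPKM and steatosis pools 10.2, 3.85, 4.61 and 6.47. Initial pool 1 was the highest of all 8 libraries, and the other 3 initial pools lay below every steatosis pool. The log2 fold change was 0.77 ± 0.51 (interval -0.36 to 1.90; limma adjusted p = 0.277), with means of 4.45 ± 4.25 and 6.27 ± 2.81 FPKM (n = 4). Without initial pool 1 the initial mean was 2.33 ± 0.543 FPKM (n = 3) and EPCAM was higher in steatosis by 1.32 ± 0.31 on the log2 scale (interval 0.62 to 2.01; adjusted p = 0.0139). The call thus rested on whether initial pool 1, the library with the stomach transcripts, was included. The steatosis pool of the same number was also high, and the ratio of the 2 pools numbered 1 was 0.941, against 1.32, 2.08 and 3.5 for pools 2, 3 and 4.

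SPINT2 encodes hepatocyte growth factor activator inhibitor 2, a membrane protein that blocks serine proteases such as matriptase and hepsin (gene ID 100515207, chromosome 6, 47181772 to 47210564). It had 8.01, 4.44, 4.56 and 4.11 FPKM in initial pools 1 to 4 and 12.6, 9.28, 7.94 and 10.7 FPKM in steatosis. The groups overlapped only through initial pool 1, at 8.01 against 7.94 FPKM. SPINT2 rose from 5.28 ± 1.83 to 10.1 ± 2.01 FPKM (n = 4), a log2 fold change of 0.96 ± 0.22 (interval 0.47 to 1.45; limma adjusted p = 0.0105). It was 1.18 ± 0.16 without initial pool 1 (adjusted p = 0.00109). With median ratio scaling it was 0.68, with an adjusted p of 0.0506.

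SOX9 and SOX4 are transcription factors of the SOX family that act together in bile duct development (gene ID 396840, chromosome 12, 8642154 to 8647315, and gene ID 100512542, chromosome 7, 16886834 to 16895488). SOX9 had 0.47, 0.37, 0.42 and 0.64 FPKM in the initial pools 1 to 4 and 2.15, 0.71, 0.55 and 2.17 in steatosis. Steatosis pools 1 and 4 stood well above pools 2 and 3, and pool 3 was below initial pool 4. The means were 0.475 ± 0.117 and 1.40 ± 0.886 FPKM (n = 4), so the spread between pools was larger in steatosis. The log2 fold change of SOX9 was 1.18 ± 0.42 (interval 0.25 to 2.10), and its limma adjusted p was 0.0584. It was 0.024 when pool number entered the fit as a block, and 0.0875 without initial pool 1.

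SOX4 had 1.99, 1.53, 1.41 and 1.17 FPKM in the initial pools 1 to 4 and 3.41, 2.10, 1.65 and 2.94 in steatosis. Its groups overlapped through initial pool 1 only, and each steatosis pool was above the initial pool of its number by a ratio of 1.17 (pool 3) to 2.51 (pool 4). With means of 1.52 ± 0.344 and 2.52 ± 0.796 FPKM (n = 4), the log2 fold change was 0.66 ± 0.24 (interval 0.13 to 1.2; limma adjusted p = 0.0629, and 0.042 when pool number entered as a block). It was 0.79 without initial pool 1 (adjusted p = 0.0414).

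CFTR encodes the chloride channel of the apical membrane of cholangiocytes, which drives bicarbonate secretion into bile (gene ID 403154, chromosome 18, 28627717 to 28818209). Its FPKM was 0.60, 0.92, 0.51 and 0.37 in initial pools 1 to 4 and 1.57, 0.81, 0.59 and 1.72 in steatosis. As for SOX9, steatosis pools 1 and 4 were the high ones, while pools 2 and 3 lay inside the initial range. The means were 0.6 ± 0.233 and 1.17 ± 0.556 FPKM (n = 4), and the log2 fold change of 0.81 ± 0.35 (interval 0.02 to 1.59) did not pass (limma adjusted p = 0.112, and 0.146 without initial pool 1).

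PROM1 encodes prominin 1 (CD133), a membrane glycoprotein of cell protrusions that is used to mark progenitor and duct cells (gene ID 100511336, chromosome 8, 11215659 to 11331442). It had 0.66, 0.38, 0.38 and 0.21 FPKM in initial pools 1 to 4 and 2.2, 1.71, 3.69 and 2.14 in steatosis. Every steatosis pool was above every initial pool, and the ratio within pools of the same number ran from 3.33 (pool 1) to 10.2 (pool 4). PROM1 rose from 0.408 ± 0.186 to 2.44 ± 0.865 FPKM (n = 4), a log2 fold change of 2.34 ± 0.30 (interval 1.66 to 3.01; limma adjusted p = 0.00062). It was 2.56 without initial pool 1 (adjusted p = 0.00038) and 2.10 with median ratio scaling (adjusted p = 0.00177). PROM1 was the only member without overlap in all 8 libraries, a pattern that 29.6% of all genes showed. There were 4 such members without initial pool 1 (EPCAM, SOX4, PROM1 and SPINT2), against 33.8% of all genes.

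By exact permutation of the pools between the groups (two-sided, difference of mean FPKM), PROM1 had p = 0.0286, the smallest that 4 pools against 4 can give, and SOX9, SOX4 and SPINT2 had p = 0.0571. The exact p was 0.171 for CFTR, 0.457 for EPCAM and 0.8 for KRT19. These 7 values were not adjusted.

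**Figure D3:**
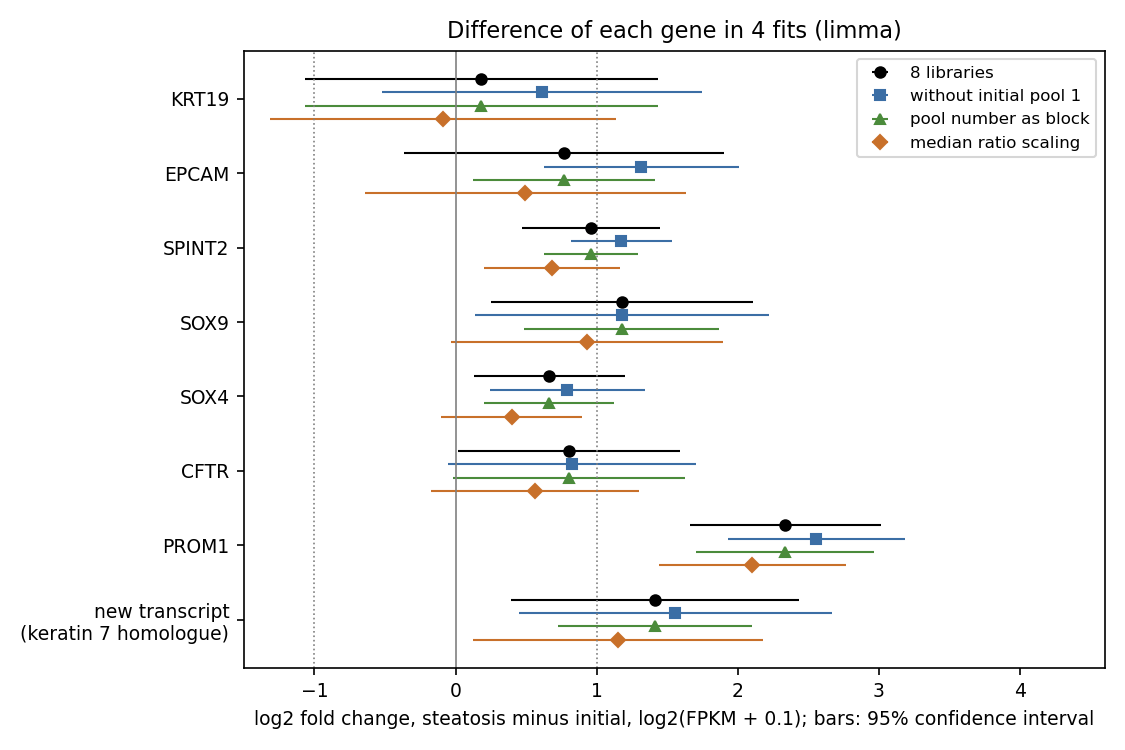
Log2 fold change of steatosis against initial on log2(FPKM + 0.1) (x axis) for the 7 measured members and the new keratin 7 transcript (y axis), with 95% confidence intervals, in 4 limma fits: all 8 libraries, without initial pool 1, with pool number blocked and with median ratio scaling. The grey line marks 0 and the dotted lines -1 and 1. PROM1 lies between 2.10 and 2.56 in all 4 fits, SPINT2 between 0.68 and 1.18, and the KRT19 intervals all cross 0.

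The order of levels was SPINT2, EPCAM, KRT19, SOX4, CFTR, SOX9 and PROM1 in the initial state and SPINT2, EPCAM, KRT19, SOX4, PROM1, SOX9 and CFTR in steatosis, from high to low FPKM. In the initial state SOX4 and CFTR were the only neighbours in this order whose ranges over pools did not overlap. In steatosis all neighbours overlapped. PROM1 was thus at rank 7 of 7 in the initial state and at rank 5 in steatosis, where its range of 1.71 to 3.69 FPKM overlapped those of SOX4 and SOX9. Without initial pool 1, KRT19 (2.63 ± 1.25 FPKM, n = 3) stood above EPCAM (2.33 ± 0.543 FPKM), and their ranges overlapped.

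The pools of 1 group differed among themselves in a way that several members shared. Initial pool 1 was the highest initial pool for 5 of 7 members and among the 2 highest for all 7, while 45% of all genes tested had it among the 2 highest. Initial pool 4 was the lowest for 6 of 7, against 51.1% of all genes. In steatosis, pool 1 was among the 2 highest for 7 of 7 members (52.1% of all genes) and pool 4 for 6 of 7 (52.8%), and pool 3 was the lowest for 5 of 7 (28.4%). PROM1 had its highest steatosis value in pool 3, and EPCAM its lowest in pool 2. Pool 4 had the largest median difference between the groups: the median log2 difference over the members was 1.75 in pool 4, against 0.75, 0.43 and 0.32 in pools 1, 2 and 3, and that over all genes was 0.44, 0.27, 0.16 and 0.17 in the same order.

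Some other lists had the same pools at the top. Over all genes tested, steatosis pools 4 and 1 were among the 2 highest for 52.8% and 52.1%. Initial pool 1 was the highest for 23.7% of all genes and initial pool 4 the lowest for 51.1%. Of 18 other cholangiocyte genes tested, steatosis pool 4 was among the 2 highest for 16 and pool 1 for 14. Of 10 stellate cell and fibroblast genes, which mark the collagen-producing cells of the portal tract and sinusoid, steatosis pool 4 was among the 2 highest for 9 and pool 1 for 7, and initial pool 1 was the highest for 8 and initial pool 4 the lowest for 9. Lists of other kinds did so too: steatosis pools 1 and 4 were among the 2 highest for 8 and 9 of the 12 paralogues and partners, for 4 and 3 of 4 genes of large ducts and for 6 and 6 of 8 T and NK cell genes. They were so for 3 and 2 of 10 hepatocyte genes and 1 and 3 of 8 endothelial genes. The summed FPKM of this stellate list ran from 67.8 to 270.0 in the initial pools and from 123.6 to 326.5 in steatosis, and none of its genes was at 0 in all steatosis pools. The 270.0 was in initial pool 1, the pool with the skeletal muscle transcripts. DES made up 71.55 FPKM of it, against 3.23 to 7.39 in the other initial pools. The part of muscle RNA in this sum was not tested. COL1A1 had 30.3, 22.6, 14.5 and 8.06 FPKM in initial pools 1 to 4 and 44.2, 13.7, 16.7 and 75.2 in steatosis, the same high pools as SOX9 and CFTR. Its log2 fold change was 0.81 ± 0.56 (limma adjusted p = 0.301). The part of the amount of portal tissue in each sample in the members' values was not tested.

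Over the 8 libraries, which include both groups, log2(FPKM + 0.1) of SPINT2 and SOX4 correlated at r = 0.93, CFTR and SOX4 at 0.90, and SOX4 and SOX9 at 0.85. PROM1 followed KRT19 least (r = 0.26). The new keratin 7 transcript went with SOX4 (r = 0.94), CFTR (0.92) and SOX9 (0.91). These are descriptions over 8 libraries that share the difference between groups.

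**Figure D4:**
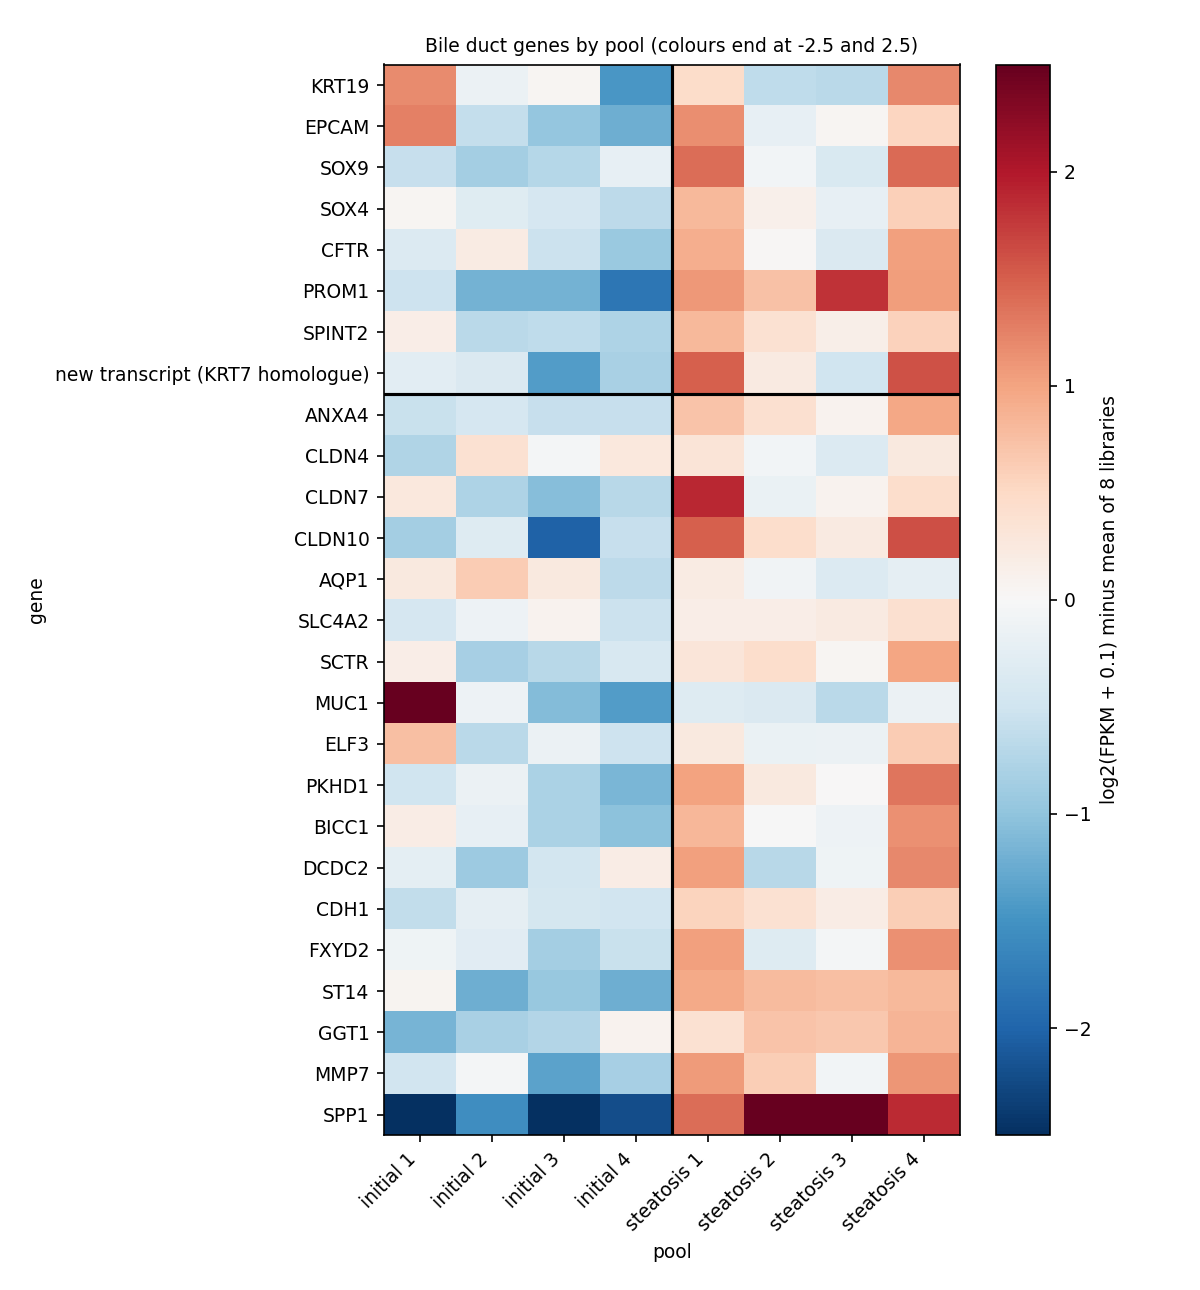
Colour shows log2(FPKM + 0.1) of each gene minus its mean over the 8 libraries, for the 7 measured members and the new keratin 7 transcript (above the black line) and the 18 other cholangiocyte genes tested (below it), in the 4 initial and 4 steatosis pools (columns). Steatosis pool 4 was among the 2 highest steatosis pools for 6 of 7 members and 16 of 18 other genes, and the darkest red of initial pool 1 is at MUC1, EPCAM and KRT19.

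Other genes of bile duct epithelium that were higher in steatosis included SPP1, CLDN10, ST14, GGT1 and CDH1. Of 23 such genes, 18 were tested, and 10 were higher at an adjusted p under 0.05 (background 26.7%), 5 of these beyond a log2 fold change of 1 at an adjusted p under 0.01 (background 6.01%), and 0 were lower. Their median log2 fold change was 0.90, against 0.25 over all genes, and without initial pool 1 it was 1.07 with 11 called higher (23.7% of all genes). With median ratio scaling 8 were called higher (11.3%), 2 of them by the stricter limits (3.04%). The list includes genes that are not restricted to ducts in the liver, so it is no measure of duct cells alone.

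SPP1 (osteopontin, a secreted phosphoprotein of cholangiocytes and of macrophages) had 4.68, 9.64, 4.16 and 6.01 FPKM in initial pools 1 to 4 and 74.4, 226.5, 201.4 and 103.6 in steatosis, with a log2 fold change of 4.54 ± 0.37 (limma adjusted p = 5.6e-05). Its high pools in steatosis were 2 and 3, where KRT19, SOX9 and CFTR were low. The macrophage gene CD68 (gene ID 103158530), named after its values were seen, was high in the same pools. It had 36.8, 63.8, 58.1 and 29.3 FPKM in steatosis pools 1 to 4 and 7.33 to 13.9 in the initial pools. The macrophage list as a whole did not share this order. Steatosis pools 2 and 4 were each among the 2 highest for 6 of its 10 genes, and pools 1 and 3 each for 4. Of these 10 macrophage genes 7 were called higher at an adjusted p under 0.05 (26.7% of all genes) and 0 lower (2.28%). With median ratio scaling 5 were higher (11.3%) and 1 lower (10.1%). Both higher counts include TREM2, named after its values were seen. TREM2 had 0.00 to 0.29 FPKM in the initial pools and 4.01 to 6.54 in steatosis. It passed the filter only through its steatosis pools, so its call is no support for a rise. Of the macrophage genes with the highest levels, C1QB was called higher and C1QA and CD14 were not. The sum of the macrophage genes ran from 701.8 to 876.3 FPKM in the initial pools and from 1019 to 1163 in steatosis, and none was at 0 in all steatosis pools. Their part in the SPP1 values was not tested. CLDN10, a tight junction claudin, rose by a log2 fold change of 1.88 ± 0.42 (adjusted p = 0.00902), from 0.61 to 2.2 FPKM in the initial pools to 3.25 to 8.74 in steatosis. ST14 (matriptase, a protease that SPINT2 inhibits) rose by 1.65 ± 0.27 (adjusted p = 0.00216), from 1.34, 0.49, 0.61 and 0.49 FPKM to 2.52, 2.26, 2.21 and 2.29.

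PKHD1, which encodes the ciliary protein fibrocystin, had 0.18, 0.26, 0.13 and 0.08 FPKM in initial pools 1 to 4 and 0.7, 0.37, 0.3 and 0.9 in steatosis (log2 fold change 1.29 ± 0.35, limma adjusted p = 0.0221). It passed the filter only through its steatosis pools. Its call and its lack of overlap are therefore no support for a rise, though it is counted among the genes of this list called higher. MMP7, a metalloproteinase of duct epithelium, rose by a log2 fold change of 1.35 ± 0.31 (adjusted p = 0.0112) and GGT1, gamma-glutamyltransferase, by 1.31 ± 0.24 (adjusted p = 0.00354). CDH1 (E-cadherin, in hepatocytes as well as duct cells) rose by 0.87 ± 0.12 (adjusted p = 0.00089), from 44.6 to 58.5 FPKM to 76.9 to 104.1. CLDN4 had the highest level of the claudins in the list and did not pass (log2 fold change 0.08 ± 0.24, adjusted p = 0.828, with a negative sign under median ratio scaling and without initial pool 1). MUC1, named after its values were seen, had 9.79 FPKM in initial pool 1 and 0.12 to 0.43 in the other 7 libraries.

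The simple keratins KRT8 and KRT18, which pair in hepatocytes and ducts, both rose. KRT8 had 84.0, 106.6, 86.7 and 78.8 FPKM in initial pools 1 to 4 and 229.0, 149.3, 188.6 and 214.4 in steatosis, a log2 fold change of 1.12 ± 0.15 (limma adjusted p = 0.00064). KRT18 had 39.5, 51.0, 39.0 and 31.1 FPKM and 101.9, 65.5, 83.3 and 87.8, a log2 fold change of 1.08 ± 0.17 (adjusted p = 0.00164). Neither gene overlapped between the groups, and both lay above KRT19 in every library. Whether their rise differs from that of KRT19 was not tested.

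Of 12 paralogues and partners of the members that were tested, 3 were higher (KRT8, KRT18 and ANO1) and 0 lower at an adjusted p under 0.05, near the 26.7% and 2.28% of all genes, and their median log2 fold change was 0.23, near the 0.25 of all genes. ANO1, a calcium-activated chloride channel that works beside CFTR, had 10.1 to 14.6 FPKM in the initial pools and 14.7 to 16.9 in steatosis (log2 fold change 0.36 ± 0.12, limma adjusted p = 0.0482), a call that 4 of 19 alternatives kept. Both protease partners of SPINT2 in hepatocytes were abundant. HPN (hepsin) had 100.5 to 125.1 FPKM in the initial pools and 96.8 to 106.0 in steatosis (log2 fold change -0.15, adjusted p = 0.261, or -0.43 and 0.0110 with median ratio scaling), and HGFAC, the activator of hepatocyte growth factor, had 181.1 to 195.4 and 187.7 to 251.9 (0.21, adjusted p = 0.143, with a negative sign under median ratio scaling). The related inhibitor SPINT1 had 0.29 to 0.84 FPKM in the initial pools and 0.36 to 1.54 in steatosis (0.68, adjusted p = 0.263).

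Notch and YAP signalling guide liver progenitor cells toward the duct fate. Of 15 of their genes tested, 3 were higher at an adjusted p under 0.05, below the 26.7% of all genes in share, and 0 were lower, with a median log2 fold change of 0.39. NOTCH2, the receptor needed for duct formation, was higher by 0.59 ± 0.14 (limma adjusted p = 0.0143), NOTCH1 by 0.63 ± 0.20 (adjusted p = 0.0405, or 0.0514 with the block) and AMOTL2, a YAP target, by 0.59 ± 0.14 (adjusted p = 0.0112). With median ratio scaling 0 of the 15 were called higher (11.3% of all genes) and 1 lower (10.1%). This was HEY1, a Notch target named after its values were seen, which had 0.3 to 0.67 FPKM in the initial pools and 0.15 to 0.4 in steatosis (log2 fold change -0.82, limma adjusted p = 0.0617, 0.0360 with the block and 0.0389 with median ratio scaling). CTGF, a YAP target also named after its values were seen, had 9.42, 3.42, 2.74 and 2.5 FPKM in initial pools 1 to 4 and 6.1 to 8.11 in steatosis (0.83, adjusted p = 0.106, or 0.0444 with the block), and was higher by 1.25 (adjusted p = 0.00063) without initial pool 1. HES1, a Notch target, had 16.0 FPKM in initial pool 1 and 4.01 to 5.08 in the other 7 libraries, and CYR61, a YAP target, had 38.5 FPKM there and 7.69 to 15.8 elsewhere.

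Of 11 tested genes of progenitor cells and ductular reaction, 5 were higher at an adjusted p under 0.05 (26.7% of all genes) and 0 lower (2.28%), and their median log2 fold change was 0.52. CCL2, a chemokine made by reactive duct cells among others, had 4.14 to 8.07 FPKM in the initial pools and 8.52 to 24.3 in steatosis (1.24 ± 0.32, limma adjusted p = 0.0180), and CD44, a hyaluronan receptor, had 7.33 to 11.4 and 13.2 to 14.2 (0.52 ± 0.13, adjusted p = 0.0174). TNFSF12 (TWEAK) and its receptor TNFRSF12A (FN14), a pair known to expand progenitor cells in rodents, were named after their values were seen. TNFRSF12A had 1.88, 1.21, 0.99 and 0.96 FPKM in initial pools 1 to 4 and 6.86, 4.53, 4.6 and 6.85 in steatosis (2.11 ± 0.23, adjusted p = 0.00025), and TNFSF12 had 3.20 to 4.20 and 8.36 to 10.8 (1.41 ± 0.13, adjusted p = 0.00011). The remaining gene was AFP, at 0.14 to 0.43 FPKM in all 8 libraries (0.67, adjusted p = 0.0461, or 0.0714 with the block). It passed the filter only through its steatosis pools, so its call is no support for a rise. THY1 (0.25, adjusted p = 0.749) did not pass. With median ratio scaling 2 of the 11 were called higher (11.3% of all genes) and 1 lower (10.1%). The lower one was LCN2, named after its values were seen. LCN2 had 3.30, 7.68, 10.2 and 2.34 FPKM in initial pools 1 to 4 and 2.06 to 2.83 in steatosis. Its log2 fold change was -0.97 (limma adjusted p = 0.0962), or -1.245 with median ratio scaling (adjusted p = 0.0404).

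Genes of large bile ducts and gallbladder gave a mixed picture. PIGR, the receptor that carries immunoglobulin A across epithelium, had 4.03, 4.75, 2.51 and 3.40 FPKM in initial pools 1 to 4 and 27.3, 19.7, 16.2 and 22.7 in steatosis (log2 fold change 2.53 ± 0.21, limma adjusted p = 6.2e-05). MUC13, a membrane mucin, had 6.77 to 11.2 and 22.8 to 46.3 FPKM (1.88 ± 0.24, adjusted p = 0.00057). They were the 2 called higher of 4 tested (26.7% of all genes), and 0 were lower (2.28%). AGR2, named after its values were seen, had 26.8, 1.96, 0.75 and 0.76 FPKM in initial pools 1 to 4. It had 0.39 to 0.67 FPKM in steatosis (log2 fold change -1.93 ± 0.94, limma adjusted p = 0.145). Without initial pool 1 this was -0.80 (adjusted p = 0.105). LYZ, also named after its values were seen, did not pass (0.59, adjusted p = 0.624). TFF2, a secreted trefoil peptide also made in the stomach, had 28.6 FPKM in initial pool 1 and 0.00 to 0.89 in the other 7 libraries.

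The genes whose log2(FPKM + 0.1) followed each member most closely over the 8 libraries, among about 10581 named genes of at least 1 FPKM on average, differed from member to member. For PROM1 they were DCPS (r = 0.985), CAPN2 (0.980) and EGR2 (0.979), for SPINT2 MARCH2 (0.995), PLCD1 (0.988) and MAP1LC3A (0.986), and for SOX4 SMO (0.981), PFKFB1 (0.979) and ZNF672 (0.976). KRT19 had PIGS (0.941), CASTOR2 (0.929) and DCN (0.925), and EPCAM had DUSP8 (0.954), PPP1R15A (0.949) and PKD2 (0.942), both with lower values of r than the other members. SOX9 had C7H14orf93 (0.976), NAALADL1 (0.968) and C10H1orf53 (0.967), and CFTR had PDGFD (0.979), TBC1D25 (0.979) and SNUPN (0.978).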

How the data were processed

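The authors filtered the reads, aligned them with HISAT2 2.0.4 to Sus scrofa 11.1, assembled new transcripts with StringTie, and estimated expression with Bowtie2 2.2.5 and RSEM 1.2.12 (tools and versions per the labels and the study's methods). The deposited values used are FPKM per gene in 8 libraries, for 17778 known genes and 325 new transcripts, with no stated scaling between libraries. The deposited comparisons of single pools hold the authors' fold changes and p values, which were not used. Their transcript length column (other unit: bases), deposited by the authors, was used.

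Genes reaching 0.3 FPKM in 4 or more libraries entered a fit on log2(FPKM + 0.1) by limma (version 3.58.1, R version 4.3.3), with the group as the only term, a mean-variance trend and Benjamini-Hochberg adjustment over all 13175 genes. Fold changes are on that scale, which understates the change of low genes. Because the files hold FPKM, not read counts, no count test was run, and the library sums (511860 to 545730 FPKM) do not give depth. In each of the 8 libraries, 16 to 32 genes of 400 to 600 bases lay in a fixed, narrow window of low FPKM. Their median of 0.11 to 0.13 follows from that window and does not compare depth. The number of pools limits the precision. Replicates are pools of 2 pigs, so p values measure the spread between pools.

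Coordinates are those of RefSeq for Sscrofa11.1, matched by gene ID. Whether same-numbered pools hold the same 2 pigs is not stated. They were treated as pairs in the block, because deviations from the group means correlated at r = 0.163, 0.350, 0.317 and 0.247 between same-numbered pools. Between pools of unlike number r ran from -0.203 to 0.028. These values come from the same data, so the calls with the block rest on an assumed pairing. Other steps were run in Python (3.11.15) using scipy (1.17.1), pandas (2.3.3), matplotlib (3.10.9) and numpy (2.4.6).

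Members and gene lists were chosen with earlier results of these data known. The genes named were the members, up to 6 called genes with the largest fold change and up to 3 of the highest level in the paralogue, cholangiocyte and Notch and YAP lists, up to 3 of the highest level in other lists, and the 3 genes most correlated with each member. Others are marked as named after their values were seen. Alternatives covered the pseudocount, filter, scaling, variance model, a test against a log2 fold change of 1, the block by pool number and each library left out. A permutation test on log2(FPKM + 0.1) was added after the data were seen. From the cholangiocyte list, 1 gene is not reported here and is left out of that list's counts.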

Additional observations from a re-analysis of the deposited data

Results flagged for a closer look

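In 6 of 58 groups of 4 pools examined, 1 pool lay farther from the others than Dixon's 95% limit allows, and in all 6 it was initial pool 1. For independent groups, chance gives about 1 in 20. These groups share the same libraries, and members and lists were chosen with earlier results known, so the count does not measure chance. The 58 groups did not cover the sum of every list, so other pools may also stand apart. The mesothelial sum was 1.90 FPKM in initial pool 3 and 0.16 to 0.32 in the other initial pools. The hepatocyte sum was 95460 FPKM in initial pool 4 and 62940 to 68000 in the others. Neither sum is among the 6. EPCAM in the initial pools had a gap of 0.88 of its range, with 10.8 FPKM against 1.85 to 2.92 in the other 3. SPINT2 had a gap of 0.885, with 8.01 against 4.11 to 4.56 FPKM. ST14, the protease that SPINT2 inhibits, had a gap of 0.859, with 1.34 against 0.49 to 0.61 FPKM. HES1 had a gap of 0.924, with 16.0 against 4.01 to 4.92 FPKM. The summed stomach mucosa genes had a gap of 0.983 (2235 against 5.75 to 44.0 FPKM), and the summed skeletal muscle genes one of 0.993 (2816 against 0.84 to 21.0 FPKM). The part of the stomach and muscle RNA in the EPCAM, SPINT2, ST14 and HES1 values was not tested.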

How the results depend on the processing

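PROM1 kept its direction under 19 alternatives (log2 fold change 1.27 to 2.60) and lost an adjusted p under 0.05 under 1, the test against a log2 fold change of 1 (adjusted p = 0.0615). SPINT2 kept its direction (0.68 to 1.18) and lost the call under 2. Under adjusted p under 0.05, the members called higher were 2 with all libraries, 1 with median ratio scaling, 4 with the replicate block (pairing by pool number: PROM1, SPINT2, SOX9 and SOX4), 0 in the test against a log2 fold change of 1, and 2 to 4 with 1 library left out, with 4 without initial pool 1 and 4 without steatosis pool 3. Under the stricter limits the member count of 1 became 0 in the test against 1, and 2 without pool 1 of both groups in the block (3 at 0.05, where SOX9 at 0.0639 and SOX4 at 0.0968 lost the call and EPCAM at 0.0263 gained it), and it ran from 1 to 2 with 1 library left out. The block changed no other member's call. Over all genes the 792 strict higher calls became 395 with a pseudocount of 1, 401 with median ratio and 436 with upper quartile scaling and 68 in the test against 1. The 3519 higher calls at 0.05 became 1488, 1667 and 132 in the last 3 settings, and 2200 to 3401 with 1 library left out, and were fewest without steatosis pool 4. The 44 strict lower calls became 85, 75 and 1, and 26 to 51 with 1 library left out, and the 300 lower calls at 0.05 became 1327, 1072 and 5, and 168 to 397. KRT19 turned negative with median ratio (-0.089) and upper quartile scaling (-0.050), without initial pool 4 (-0.27) and without steatosis pool 4 (-0.19), and ran from -0.27 to 0.61 with 1 library left out. HGFAC turned negative with both scalings (-0.069 and -0.029). CLDN4 turned negative with both scalings (-0.20 and -0.16), without initial pool 1 (-0.16), without steatosis pool 1 (-0.01) and with the block without pool 1 (-0.25), with a range of -0.16 to 0.22 over single libraries left out. CYR61 turned positive without initial pool 1 (0.19) and with the block without pool 1 (0.19), as did HES1 (0.088 and 0.051). With 1 library left out CYR61 ran from -0.58 to 0.19 and HES1 from -0.57 to 0.088. The cause of these changes was not tested, apart from the scalings, which lower the median of all genes from 0.25 to -0.02 and 0.02.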
